A study of Mus musculus with 21 samples.

Results

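Histone genes were followed across 21 RNA sequencing libraries of mouse striatum. They were taken as the gene symbols of the deposited table that start with Hist1h, Hist2h, Hist3h, Hist4h, H2af or H3f3, or equal H1f0 or H1fx, with pseudogene names holding -ps left out. The rule found 86 of 41128 symbols, 69 of them genes of the Hist clusters and 17 outside them. Per the labels, wild type mice received adeno-associated virus (AAV, a carrier of a gene that does not replicate) in the striatum and the tissue was taken 3 weeks later. Cas9 is the bacterial nuclease used to cut genomes, GFP is a fluorescent protein, and the labels leave GCas9 unexplained, though the study is known for shortening the half-life of Cas9 with part of Geminin. The libraries fall in a pair of sets by their titles. In set A 3 libraries carried each of the labels WT, Cas9 and GCas9, and in set B 4 libraries carried each of GFP, Cas9 and GCas9. The labels do not say whether the WT mice were injected, name no promoter, guide RNA or dose, and give the age as 3 weeks in one field and 3 months in another. They do not say that each library is a separate animal, so p-values measure the spread between these libraries. The sets were scaled apart by the authors, and levels, given as normalized read counts, are compared within a set only.

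Histones are the proteins on which DNA is wound. Genes of the Hist clusters mostly supply new histones during S phase, and their messages typically end just after a short stem-loop, without the poly(A) tail of other messages. Some clustered genes also give longer, polyadenylated messages, and genes outside the clusters (replacement histones such as H3.3, H2A.Z and H1.0) are made through the life of nondividing cells such as neurons. Hist1h1c encodes a linker histone of the H1 family, which binds the DNA between nucleosomes. The labels name a SMARTer kit for the cDNA and do not say how it was primed, so how far messages without a poly(A) tail were captured was not tested.

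The stem-loop was searched as a single strict sequence pattern along each whole GENCODE M21 transcript. It is shown because a match marks the S phase type of message end, while a missing match does not show that this end is absent. It was found in 44 of 55341 GENCODE genes, 40 of them histone genes of the rule. In these 40 it lies after the coding part, in the 3′ UTR, and its place in the others was not examined. The 4 loop bases are in capitals.

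Hist1h1c: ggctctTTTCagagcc
Hist1h2be: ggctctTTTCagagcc
Hist1h4h: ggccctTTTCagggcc
H2afx: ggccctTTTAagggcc

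In Hist1h1c the stem-loop began 24 bases after the coding part, and the annotated transcript continued for 840 bases beyond it. In Hist1h2be these distances were 29 and 1861 bases, in Hist1h4h 31 and 46 bases, and in H2afx, which lies outside the clusters, 46 and 822 bases. Hist1h1e (40 and 1153), Hist3h2a (41 and 1643), Hist3h2ba (28 and 169) and Hist2h3c2 (30 and 377) carried the sequence printed for Hist1h1c, and Hist1h4d (36 and 770) the one printed for Hist1h4h. No match was found in Hist1h2bc, Hist2h4, Hist2h2be, Hist1h4i, H1f0, H3f3a or H3f3b. Other spellings of the stem-loop, and bases beyond the annotated transcripts, were not searched. The 28 clustered genes with a coding part and no match had a median of 1.5 annotated bases after it.

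Most clustered histone genes gave few or no reads in these striatum libraries. In set A 19 of the 86 had no read, 42 had reads but a mean normalized count under 10, and 25 reached 10 and were tested. In set B the numbers were 15, 46 and 25, and 24 genes were tested in both sets (Hist1h4k only in set A, Hist1h4d only in set B). No read was seen in either set for 11 genes. In each set the tested genes were 14 clustered genes and 11 others. The lowest tested gene was Hist1h1e in set A (mean 12.6) and H3f3aos in set B (12.53), and the next below were Hist1h4j (8.55) and Hist1h4c (6.85).

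Within each family 1 or a few genes gave most reads. These are normalized counts, not divided by gene length, so they rank no gene against another. Among the linker histones Hist1h1c was at a mean of 608.9 in set A and 314.62 in set B, and Hist1h1e at 12.6 and 17.39. Among clustered H2A genes Hist3h2a was at 353.62 and 232.67, and among clustered H2B genes Hist1h2bc was at 641.61 and 451.72 and Hist3h2ba at 278.61 and 170.16. The clustered H3 genes were low, with Hist2h3c2 at 27.87 and 19.33, and so were the H4 genes, with Hist2h4 at 83.67 and 44.25. Outside the clusters, H3f3b, a gene for the replacement histone H3.3, was at 3824.51 and 2023.07 and H3f3a, the other H3.3 gene, at 1263.98 and 356.83. The H2A.Z gene H2afz was at 1526.53 and 740.48, the macroH2A gene H2afy at 1565.42 and 691.83, and the replacement linker histone gene H1f0 at 1495.6 and 686.73.

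Detection of clustered genes was set against the annotated length after the coding part, as a description with no test. Of 22 clustered genes with at least 300 such bases, 9 passed the filter in set A and 10 in set B, with a median level per kilobase of transcript of 4.08 and 6.62. Of 45 with fewer than 300, 4 and 3 passed, with medians of 0.92 and 0.54, and the other two clustered genes have no annotated coding part. These groups also differed in how far their sequence is shared with other genes, with medians of 24.7% and 64.8% of 50-base windows found in another gene. Genes with more than 50% of windows shared had a median of 0.52 per kilobase in set A against 2.37 for the rest, so the share of windows, which can move reads between copies in the counting, and the length after the coding part cannot be told apart.

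**Figure D1:**
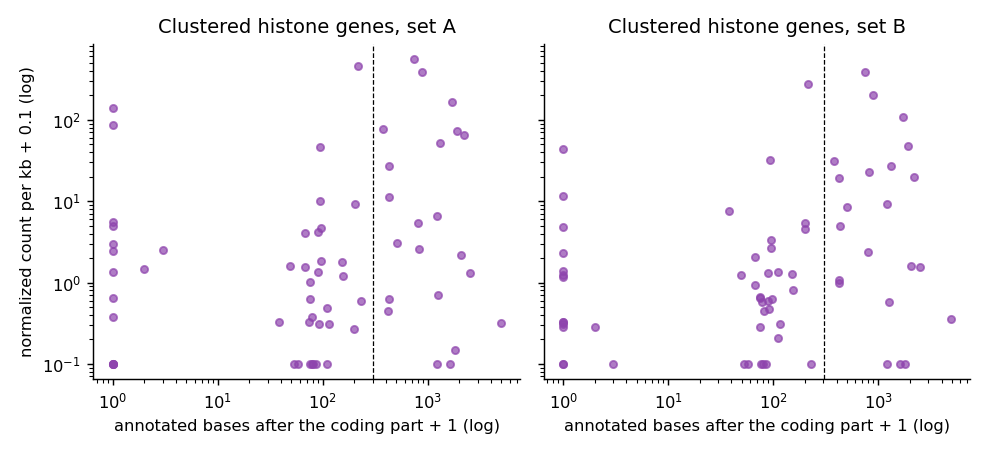
Each point is a clustered histone gene. The horizontal axis gives the annotated bases after the coding part plus 1, and the vertical axis the mean normalized count per kilobase of the longest transcript plus 0.1, both on log scales, for set A (left) and set B (right), with a dashed line at 300 bases. The points right of the line had medians of 4.08 (set A) and 6.62 (set B) per kilobase against 0.92 and 0.54 on the left, and both sides hold genes near 0.

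Set A libraries held 20.34 to 28.05 M gene reads (M, mega), and those of set B 6.09 to 11.07 M. Summed striatal neuron markers were 200200 to 249900 in the first set and 90710 to 115500 in the second, and no marker on that list was at 0. Some libraries stood apart. Cas9 replicate 1 of set A had summed ependymal and choroid plexus markers of 290900 against 824.4 to 12090 in the other libraries of set A, and GCas9 replicate 3 of set A had summed interferon-stimulated genes of 39200 against 459.8 to 4066. In set B the ependymal and choroid plexus sum was 10590 in Cas9 replicate 1 against 300.2 to 710.3 in the other 11 libraries. Without that library Hist1h1c differed by 0.74 between Cas9 and GFP. More Xist than Ddx3y was counted in 1 library of each group of set A and in 2 GFP, 3 Cas9 and 3 GCas9 libraries of set B, a split of female-type and male-type libraries.

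Hist1h1c (ENSMUSG00000036181, protein coding, chr13:23738808-23740367 on the plus strand of GRCm38, with no overlapping gene annotated) was higher with both viruses than in the controls of each set, and it was about as high with GCas9 as with Cas9. In set A its normalized counts were 385.0, 458.6 and 358.9 in WT, 718.5, 795.8 and 636.2 in Cas9, and 595.5, 769.4 and 762.3 in GCas9. In set B they were 210.5, 224.9, 272.6 and 198.4 in GFP, 300.4, 382.2, 423.7 and 329.1 in Cas9, and 293.3, 315.5, 394.1 and 430.9 in GCas9. Every Cas9 and GCas9 library lay above every control library of its set, and the Cas9 and GCas9 libraries overlapped.

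The log2 difference of Hist1h1c was 0.84 ± 0.13 (SE) for Cas9 against WT, a 1.79-fold level, and 0.82 ± 0.13 for GCas9 against WT, a 1.76-fold level. In set B it was 0.66 ± 0.14 (1.58-fold) for Cas9 against GFP and 0.65 ± 0.14 (1.57-fold) for GCas9 against GFP. These differences are of log2(normalized count + 1). None passed limma's test over all genes, with limma adjusted p of 0.4, 0.38, 0.67 and 0.31 and unadjusted p of 0.00015, 0.00018, 0.00047 and 0.00051. By unadjusted p it stood 6th of 15924 genes in both WT comparisons of set A, and at places 10 and 25 of 15428 genes in set B against GFP. An exact two-sided permutation test gave p = 0.1 for each of the set A comparisons and p = 0.0286 for each against GFP, the smallest these group sizes allow. Hist1h1c was chosen with earlier results of these data known, and both comparisons of a set share its control libraries. Its places and p-values are therefore a description and not independent support.

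DESeq2 on the recovered reads called Hist1h1c in all 4 comparisons with controls, with DESeq2 adjusted p of 8.1e-05 (Cas9 against WT), 9.4e-05 (GCas9 against WT), 0.039 (Cas9 against GFP) and 0.013 (GCas9 against GFP). Over all genes DESeq2 called 116 and 218 of 15924 in set A and 10 and 41 of 15428 in set B, in the same order. limma with array weights called it for Cas9 against WT (adjusted p = 0.012), as it did 2570 of all 15924 genes, and edgeR called it in none. Over the 9 fits that leave out 1 library of set A the difference from WT stayed between 0.76 and 0.94 for Cas9 and between 0.74 and 0.94 for GCas9. Over the 12 such fits of set B it stayed between 0.58 and 0.75 for Cas9 and between 0.56 and 0.74 for GCas9. With a term for the libraries with more Xist than Ddx3y, chosen after seeing the data, the 4 differences were 0.84, 0.82, 0.6 and 0.59.

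**Figure D2:**
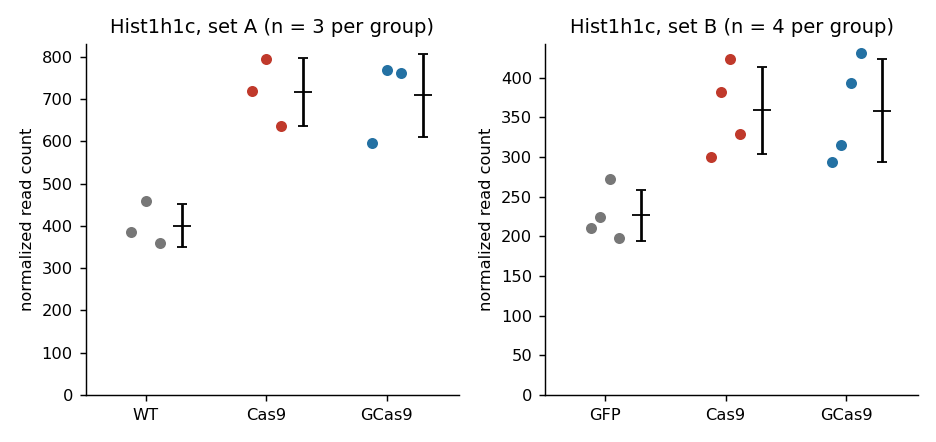
Normalized read counts of Hist1h1c (vertical axis) in each library, by group, for set A (left, 3 libraries per group) and set B (right, 4 per group). Points are libraries and the bars beside them are the mean ± SD. The control libraries lie at 358.9 to 458.6 on the left and at 198.4 to 272.6 on the right, below all libraries given Cas9 or GCas9.

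Summed markers of microglia, of astrocytes and of the interferon response were higher in every Cas9 and GCas9 library of set A than in WT, and overlapped between the groups of set B. Summed microglia and macrophage markers (12 of 12 in the table, none at 0 throughout) were 5931 to 6859 in WT, 8152 to 11310 in Cas9 and 7780 to 13140 in GCas9, and summed astrocyte markers were 73090 to 77400 in WT against 88970 to 99030 and 87400 to 105200. In set B the microglia sums overlapped, at 4706 to 7395 in GFP, 4811 to 6575 in Cas9 and 4336 to 7631 in GCas9, as did the astrocyte sums, at 21160 to 25710, 22520 to 25180 and 19270 to 29690. Summed interferon-stimulated genes were 459.8 to 504.3 in WT, 730.7 to 4066 in Cas9 and 709.9 to 39200 in GCas9, but 1045 to 9243 in GFP, 1335 to 15570 in Cas9 and 498.6 to 6224 in GCas9 of set B. Within set A, Cas9 replicate 2, with the highest Hist1h1c count (795.8), had an interferon sum of 730.7. GCas9 replicate 3, where Hist1h1c was also above every WT library, had an interferon sum of 39200. The part of these 3 sums in the Hist1h1c values of either set was not tested. Ependymal and choroid plexus sums of set B did not overlap between GFP (334.9 to 419.8) and Cas9 (423.7 to 10590), and were 300.2 to 600.9 in GCas9.

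Of the other marker lists of set A, oligodendrocyte, oligodendrocyte precursor, neuroblast and endothelial sums did not overlap between Cas9 and GCas9. Oligodendrocyte sums were 196300 to 236500 in WT, 229400 to 379800 in Cas9 and 201500 to 217700 in GCas9, with 9 of 9 markers higher for Cas9 against WT, all at an unadjusted p under 0.05, and 7 of 9 lower for GCas9 against WT, none at that p. Neuroblast sums were 2352 to 3459 in WT, 1906 to 2526 in Cas9 and 2838 to 3833 in GCas9. Oligodendrocyte precursor sums were 5491 to 5843 in WT, 5911 to 7135 in Cas9 and 5243 to 5510 in GCas9. Endothelial sums were 4391 to 5119, 5506 to 6309 and 4948 to 5139 in the same order. Lymphocyte sums overlapped between Cas9 and GCas9. They were 3901 to 4371 in WT, where Gzmb was at 0 in every library, 4501 to 18440 in Cas9 and 5111 to 44900 in GCas9. These lists overlapped between all groups of set B, with oligodendrocyte sums of 106400 to 149600, neuroblast sums of 330.5 to 854.0 and lymphocyte sums of 2283 to 19210 over its libraries. The part of any of these cells in the histone values of either set was not tested. In bulk tissue fewer cells of a type and less RNA per cell cannot be told apart.

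The RefSeq promoter windows of Hist1h1c and Hist1h1e, the tested linker histone genes of the clusters, are shown because both hold the AAACACAA motif known from H1 genes and the CCAAT motif that NF-Y binds. Each covers 250 bases before and 50 bases from the annotated start on GRCm38.p6, 5′ to 3′ on the gene's strand, with matches in capitals. Hist1h1c lies at chr13:23738557-23738856 on the plus strand and Hist1h1e at chr13:23622509-23622808 on the minus strand.

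Hist1h1c: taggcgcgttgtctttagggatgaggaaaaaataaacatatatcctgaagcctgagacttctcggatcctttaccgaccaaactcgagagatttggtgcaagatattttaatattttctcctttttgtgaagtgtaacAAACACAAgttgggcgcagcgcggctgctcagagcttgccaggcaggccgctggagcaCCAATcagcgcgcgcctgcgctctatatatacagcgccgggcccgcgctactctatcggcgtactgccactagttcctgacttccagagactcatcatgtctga
Hist1h1e: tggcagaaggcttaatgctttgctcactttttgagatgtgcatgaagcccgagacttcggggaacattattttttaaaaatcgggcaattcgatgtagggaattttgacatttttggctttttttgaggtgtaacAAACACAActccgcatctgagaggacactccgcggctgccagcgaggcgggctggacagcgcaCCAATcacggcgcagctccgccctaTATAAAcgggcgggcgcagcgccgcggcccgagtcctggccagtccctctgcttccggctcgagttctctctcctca

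In Hist1h1c the AAACACAA match began 112 bases and the CCAAT match 54 bases before the start. In Hist1h1e they began 115 and 52 bases before it, with a TATAAA match at 27 bases. On both strands, 85.2% of 61 clustered genes held CCAAT in any of their windows, against 37.4% of all 32851 RefSeq windows. For TATAAA the shares were 57.4% against 13.6%, for the octamer ATTTGCAT 23.0% against 1.7%, and for AAACACAA 9.8% against 1.9%. The first share of each pair is of genes and the second of single windows, and a gene with several windows has more chances of a match. A match is a run of letters and shows no binding.

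Against WT in set A, 0 of the 25 tested histone genes passed with Cas9 by limma, where 0.00628% of all genes (1 of 15924) did. edgeR called 0 and DESeq2 called Hist1h1c and Hist1h2be, where DESeq2 called 116 of all 15924 genes. At an unadjusted p under 0.05, 7 histone genes were higher and 1 lower, against 6.17% and 5.65% of all genes, and the libraries of the groups did not overlap for 9 that were higher and 1 that was lower, against 10.7% and 8.86%. The 14 clustered genes had a median log2 difference of 0.57, with 11 above 0 (49.1% of all genes were), and the 11 others a median of -0.04. The median was 0.38 without Cas9 replicate 1, the library with high choroid plexus markers. Of the 25, Hist1h1e (4.68 on average in WT) and Hist1h4h (8.98) reached the filter through the groups given virus, so these counts lean toward higher values and support nothing by themselves.

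Hist1h2be, a gene for histone H2B, followed Hist1h1c in order of p. It was at 141.5, 142.2 and 133.5 in WT and at 203.8, 226.8 and 192.2 in Cas9, with no overlap, a log2 difference of 0.57 ± 0.11 (SE, limma adjusted p = 0.41, DESeq2 adjusted p = 0.024). Its annotated span (chr13:23583670-23621124, minus strand) overlaps Hist1h1e (chr13:23620629-23622558, minus strand), so some reads may have been assigned to one or the other or to none. Hist1h4h, a gene for histone H4, was at 12.5, 9.5 and 4.9 in WT and at 46.8, 18.7 and 30.3 in Cas9, a difference of 1.71 ± 0.48 from few reads. H1f0, the replacement linker histone gene, was at 1265.7, 1383.5 and 1334.8 in WT and at 1725.1, 1615.2 and 1520.3 in Cas9 (0.29 ± 0.07), again without overlap. Neither of the last pair passed the test (limma adjusted p = 0.41 each).

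The other clustered genes with an unadjusted p under 0.05 were Hist1h2bc, Hist1h1e and Hist1h4i. Hist1h2bc, another H2B gene, was at 488.0, 634.5 and 439.0 in WT and 928.6, 624.2 and 752.5 in Cas9 (0.56 ± 0.16), with 1 WT library above the lowest Cas9 library. Hist1h1e was at 5.8, 4.3 and 4.0 against 23.9, 17.7 and 12.1 (1.70 ± 0.53), and Hist1h4i, an H4 gene, at 28.9, 30.2 and 38.6 against 51.0, 64.1 and 65.7 (0.87 ± 0.31). All Cas9 libraries were above all WT libraries for both. None of these passed. Among clustered genes on other chromosomes, the differences were 0.13 ± 0.11 for Hist3h2a, -0.05 ± 0.11 for Hist3h2ba, 0.20 ± 0.18 for Hist2h2be, 0.44 ± 0.28 for Hist2h4 and 0.61 ± 0.28 for the H3 gene Hist2h3c2 (limma adjusted p = 0.43). Hist2h3c2 was at 19.0 to 21.2 in WT and 25.6 to 45.8 in Cas9, with no overlap.

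With GCas9 against WT, limma again called 0 of the 25 (0.00628% of all genes, 1 of 15924), edgeR 0 and DESeq2 Hist1h1c and Hist1h2be. Over all genes DESeq2 called 218 of 15924. At an unadjusted p under 0.05, 8 were higher and 0 lower, against 4.44% and 2.33% of all genes, and 10 were higher without overlap, against 9.16%. The clustered median was 0.36 (0.54 without GCas9 replicate 2) and that of the others 0.04. Hist1h1e and Hist1h4h, which reached the filter through the groups given virus, are in these counts and in the clustered median. The counts and that median therefore lean toward higher values and support nothing by themselves. Because both comparisons use the WT libraries, their values are given side by side and not counted together. Hist1h2be was at 188.9, 222.6 and 191.1 in GCas9, all above WT (0.52 ± 0.11, SE, limma adjusted p = 0.57, DESeq2 adjusted p = 0.034). Hist1h4i was at 44.1, 77.8 and 109.7 (1.14 ± 0.31), the highest in the library with high interferon genes, and its difference was 0.84 to 1.49 when 1 library was left out. H3f3b was at 3263.8, 3485.2 and 3411.1 in WT and 3759.7, 4066.1 and 4863.1 in GCas9 (0.31 ± 0.09), with no overlap. Neither passed (limma adjusted p = 0.72 each). With the replicate number as a block limma called 2 genes in place of 1 and 0 histone genes.

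**Figure D3:**
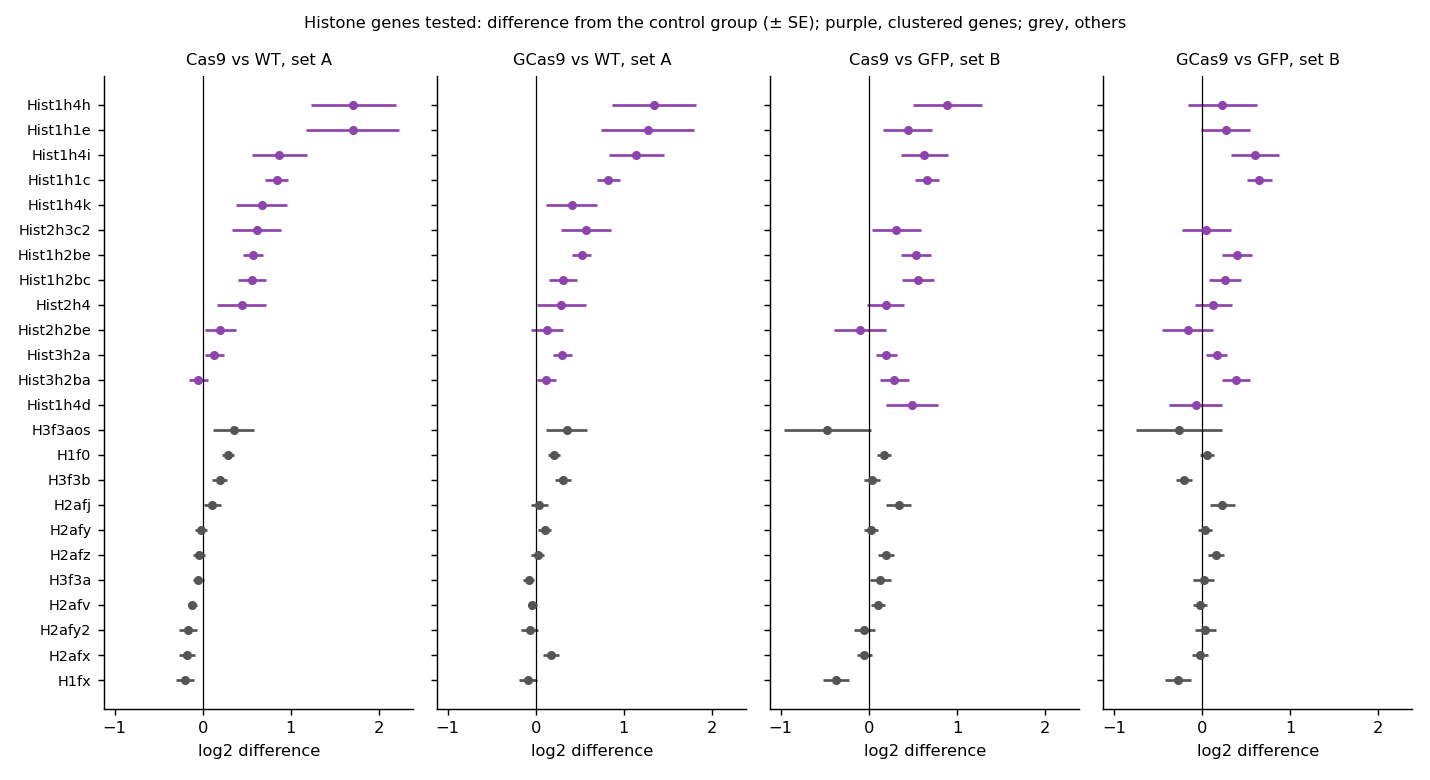
Log2 difference from the control group (horizontal axis, points with SE bars) of 24 histone genes in the 4 comparisons with WT or GFP, with genes of the Hist clusters in purple above and the others in grey below, ordered by the first comparison. Hist1h2al and Hist2h2bb, with libraries at 0, are left out, and a gene untested in a set has no point. Purple points lie mostly right of 0. Over all 14 clustered genes tested in a set, with the pair left out of the drawing included, the medians were 0.57, 0.36, 0.38 and 0.2. The other genes have medians of -0.04, 0.04, 0.04 and 0.02, and some of their points lie away from 0, such as H1fx at -0.37 for Cas9 against GFP and H3f3b at 0.31 for GCas9 against WT.

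In set B, Cas9 against GFP gave 0 of 25 histone genes by limma (0.0% of 15428 genes) and by edgeR, and Hist1h1c by DESeq2. Over all genes DESeq2 called 10 of 15428. At an unadjusted p under 0.05, 6 were higher and 1 lower, against 3.23% and 3.01% of all genes. The groups did not overlap for 4 that were higher (Hist1h1c, Hist1h2bc, Hist1h4h and Hist1h4d), against 2.63%. The clustered median was 0.38, with 11 of 14 above 0 (48.7% of all genes were), and that of the others 0.04. Hist1h2be was at 80.0, 98.3, 119.1 and 84.6 in GFP and 108.4, 151.5, 141.6 and 151.0 in Cas9 (0.53 ± 0.17), and 1 Cas9 library lay under the highest GFP library. Hist1h2bc was at 287.3, 371.9, 435.6 and 371.3 in GFP and 528.5, 494.8, 707.0 and 444.5 in Cas9 (0.56 ± 0.18), with all Cas9 libraries above GFP. The linker histone gene H1fx went the other way, at 154.7, 161.6, 126.8 and 123.8 in GFP and 106.1, 100.1, 89.7 and 144.9 in Cas9 (-0.37 ± 0.15), with the groups overlapping. All 3 missed the threshold (limma adjusted p = 0.78 each).

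Hist1h4h, at 13.7, 11.1, 17.2 and 4.5 in GFP, was at 20.3, 20.8, 23.6 and 17.2 in Cas9 of set B (0.89 ± 0.39), where the nearest libraries of the groups almost met. Hist1h1e was at 14.7, 14.5, 19.1 and 10.0 in GFP and 13.6, 26.4, 21.2 and 19.6 in Cas9 (0.44 ± 0.28), with overlap. The H1f0 difference was 0.17 ± 0.08. All of these missed the threshold (limma adjusted p from 0.79 to 0.82). All Cas9 libraries of set B were shallower (6.09 to 7.69 M gene reads) than the GFP libraries (7.89 to 9.75 M), and the part of depth in these low counts was not tested.

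GCas9 against GFP gave 0 of 25 by limma (0.0% of 15428 genes) and by edgeR, and Hist1h1c by DESeq2. Over all genes DESeq2 called 41 of 15428. At an unadjusted p under 0.05, 4 were higher and 1 lower, against 3.71% and 2.76% of all genes, and 2 were higher without overlap (Hist1h1c and Hist3h2ba), against 2.5%. The clustered median was 0.2 (11 of 14 above 0, as were 49.1% of all genes), and 0.06 without GFP replicate 4. Hist3h2ba, an H2B gene of the small cluster on chromosome 11, was at 137.9, 160.7, 109.6 and 172.0 in GFP and 173.5, 180.9, 206.3 and 191.2 in GCas9 (0.39 ± 0.16). The lowest GCas9 library and the highest GFP library were close. Hist1h2be was at 109.0, 104.5, 136.4 and 156.1 in GCas9 (0.40 ± 0.17), overlapping with GFP. H3f3b was lower, at 1652.1, 2005.2, 1819.4 and 1796.9 against 2236.3, 1994.7, 2046.3 and 2081.9 in GFP (-0.20 ± 0.09), where 1 GCas9 library lay inside the GFP range. limma adjusted p was 0.74 for Hist3h2ba and Hist1h2be and 0.75 for H3f3b, so none passed.

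**Figure D4:**
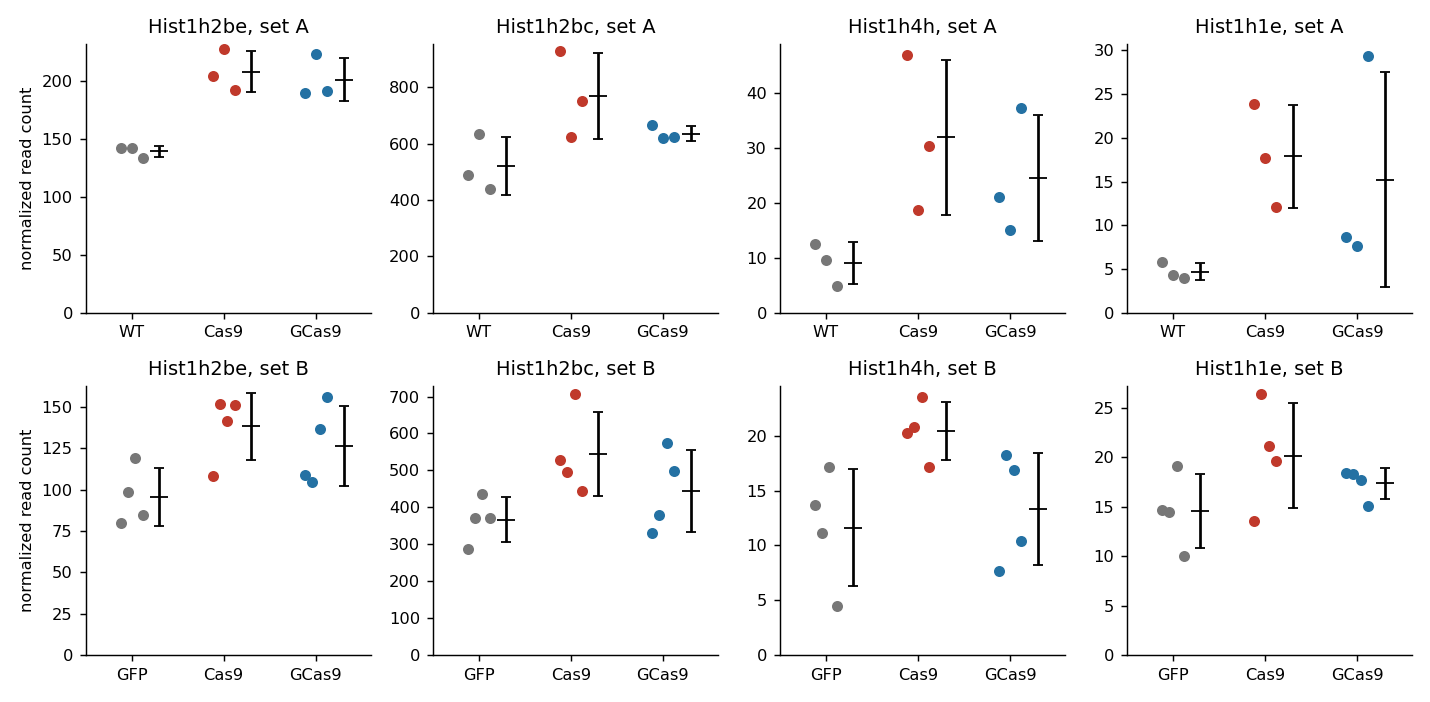
Normalized read counts (vertical axes, each from 0) of Hist1h2be, Hist1h2bc, Hist1h4h and Hist1h1e in each library of set A (top, 3 per group) and set B (bottom, 4 per group), with mean ± SD bars. In set A all libraries given Cas9 lie above WT for Hist1h2be, Hist1h4h and Hist1h1e, and in set B the groups lie closer, with Hist1h1e overlapping.

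GCas9 and Cas9 were then set against each other, the question being whether the modified nuclease leaves a different histone profile. In set A limma called 0 of 25 histone genes (0.0% of 15924 genes), edgeR 0 and DESeq2 0. At an unadjusted p under 0.05, 1 was higher and 0 lower, against 2.38% and 3.07% of all genes, and 2 were higher without overlap (H2afx and H2afv), against 4.4%. Hist1h1c differed by -0.02 ± 0.13 (SE), with a 95% interval of -0.32 to 0.28. H2afx, the H2A variant that is phosphorylated at DNA breaks, was at 496.0, 633.1 and 549.2 in Cas9, 720.1, 685.1 and 724.9 in GCas9 and 622.7, 621.5 and 650.6 in WT. All GCas9 libraries were above the other 6, and the difference from Cas9 was 0.35 ± 0.09 (limma adjusted p = 0.89, unadjusted p = 0.003). Array weights called it (limma adjusted p = 0.031), as they did 932 of all 15924 genes in this comparison. Beside it, between the same libraries, 24 of 25 S phase and mitosis genes were higher (8 at an unadjusted p under 0.05, median 0.42, or 0.24 without GCas9 replicate 3 and 0.67 without GCas9 replicate 2). Of the neuroblast markers 6 of 6 were higher (5 at that p, median 0.6), and of the oligodendrocyte markers 9 of 9 were lower, all at that p. Their part in the H2afx values was not tested. In set B it was at 345.5 to 423.6 in Cas9, 331.5 to 410.0 in GCas9 and 366.7 to 424.1 in GFP, a difference between GCas9 and Cas9 of 0.03 ± 0.09.

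In set B limma called 0 of 25 histone genes between GCas9 and Cas9 (0.0% of 15428 genes), edgeR 0 and DESeq2 0. At an unadjusted p under 0.05, 0 were higher and 1 lower, against 2.27% and 1.57% of all genes, and no gene was higher without overlap, against 1.23%. Hist1h1c differed by -0.01 ± 0.14, with a 95% interval of -0.32 to 0.30. H3f3b was at 1836.1, 2101.7, 2473.9 and 2232.3 in Cas9 and lower in GCas9 by -0.24 ± 0.09 (limma adjusted p = 0.99), with overlap. Hist1h2bc differed by -0.30 ± 0.18 in set B and by -0.25 ± 0.16 in set A, and Hist1h4h by -0.65 ± 0.39 and -0.37 ± 0.48, none past the threshold.

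Fitted over all 21 libraries, the difference between GCas9 and Cas9 could be compared between the sets. limma called 0 of 26 histone genes and 0.0% of 16094 genes, as did edgeR and DESeq2 for the histone genes, and 3 histone genes had an unadjusted p under 0.05 (4.34% of all genes). These were H3f3b (0.37 ± 0.13), H2afx (0.32 ± 0.13) and Hist1h4d (1.21 ± 0.56), each with limma adjusted p = 0.99. For Hist1h1c the difference between the sets was -0.01 ± 0.22 (95% interval -0.46 to 0.44), and the mean of the sets was -0.01 ± 0.11 (-0.24 to 0.21). The mean of the sets gave 0 called by limma (0.0% of 16094 genes), edgeR or DESeq2, and 1 higher gene, H2afx (0.19 ± 0.07, limma adjusted p = 1.0), at an unadjusted p under 0.05, against 1.94% of all genes.

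None of the other genes outside the clusters passed the limma threshold. H3f3a differed from WT by -0.05 ± 0.06 with Cas9 and -0.08 ± 0.06 with GCas9, and from GFP by 0.13 ± 0.12 and 0.02 ± 0.12. For H2afz the 4 differences were -0.04 ± 0.07, 0.02 ± 0.07, 0.19 ± 0.09 and 0.16 ± 0.09, and for H2afy -0.02 ± 0.07, 0.10 ± 0.07, 0.02 ± 0.08 and 0.03 ± 0.08. H2afv was at 824.9, 822.4 and 828.5 in WT and 731.0, 772.1 and 779.9 in Cas9 of set A, all lower, by -0.12 ± 0.05 (limma adjusted p = 0.42). H2afj was at 282.1 to 422.0 in GFP and 418.4 to 456.8 in Cas9 of set B (0.34 ± 0.14, limma adjusted p = 0.78), almost without overlap. H3f3aos, the antisense RNA of H3f3a, overlaps it, and without a statement that strand was used in counting their reads cannot be told apart.

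A pair of clustered genes had libraries without a read among libraries with many. Hist1h2al, annotated as a processed pseudogene at chr13:51202727-51203065 and far from the other tested Hist1h genes, was at 0 in replicate 2 of Cas9 and of GCas9 in set A and at 19.2 to 65.6 in the other 7 libraries. In set B it was at 0 in replicate 3 of Cas9 and of GCas9 and at 8.4 to 33.4 in the others. Hist2h2bb (chr3:96269752-96270132), whose 50-base windows are all found in another gene as well, was at 0 in the same pair of set A libraries and at 35.3 to 157.2 in the others, while in set B it ran from 2.4 to 27.1. A count of 0 means no read in that library and still allows an expected count of up to 3 reads. GCas9 replicate 3 of set A, with the high interferon genes, was the highest library for both (65.6 and 157.2). No WT or GFP library was at 0, and standard errors of 1.75 and 2.04 log2 units in set A left no comparison of groups for these genes.

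**Figure D5:**
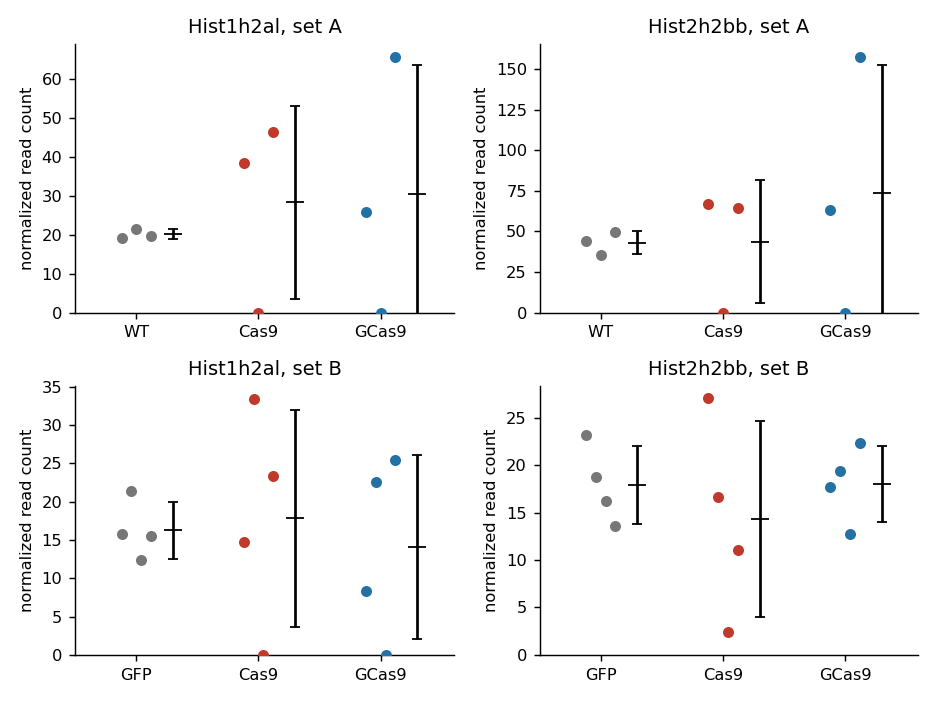
Normalized read counts (vertical axes) of Hist1h2al (left) and Hist2h2bb (right) in each library of set A (top) and set B (bottom), with mean ± SD bars whose lower ends are cut at 0 in some panels. Hist1h2al is at 0 in 1 Cas9 and 1 GCas9 library of each set, and Hist2h2bb in 1 of each in set A.

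Genes that act on histones were read from 4 lists for comparison. limma called 0 genes of these lists in all comparisons, edgeR 0, and DESeq2 1, Ccna2 for GCas9 against GFP (DESeq2 adjusted p = 0.033), where DESeq2 called 41 of all genes. For histone mRNA transcription and processing, with 18 tested of 20, the median differences from control were -0.03 (Cas9) and 0.01 (GCas9) in set A and -0.05 and -0.02 in set B. Lsm11, a subunit of the particle that cuts histone messages, differed from GFP by -0.56 ± 0.22 with Cas9 and -0.61 ± 0.22 with GCas9 (limma adjusted p = 0.78 and 0.73). The 23 histone chaperones had medians of 0.01, 0.06, 0.01 and -0.04 in the same order, and the 15 other chromatin genes -0.06, 0.02, 0.04 and 0.0.

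The 25 S phase and mitosis genes were set beside the clustered histone genes. With Cas9 against WT 8 were higher and 17 lower, 0 at an unadjusted p under 0.05, with a median of -0.13 (-0.07 without WT replicate 3), beside the clustered median of 0.57. With GCas9 against WT 24 were higher and 1 lower, 5 at an unadjusted p under 0.05, with a median of 0.42, which was 0.11 without GCas9 replicate 3. In set B, where 23 were tested, 5 were higher and 18 lower with Cas9 against GFP (2 lower at an unadjusted p under 0.05, median -0.17, or -0.01 without Cas9 replicate 1) and 2 higher and 21 lower with GCas9 (8 lower, median -0.4, or -0.25 without GCas9 replicate 4), beside clustered medians of 0.38 and 0.2. The cyclin gene Ccna2 differed by 0.52 ± 0.17 for GCas9 against WT and by -0.68 ± 0.15 for GCas9 against GFP (limma adjusted p = 0.72 and 0.31). Between GCas9 and Cas9 the S phase and mitosis median was 0.42 in set A, given above with H2afx, and -0.25 in set B, where 21 of 23 were lower (3 at an unadjusted p under 0.05, median -0.43 without Cas9 replicate 1 and -0.07 without GCas9 replicate 4). The median difference between the sets was 0.69, or 0.35 without GCas9 replicate 3 of set A. Neuroblast markers, which mark a cell type that divides, were lower in 6 of 6 for Cas9 against WT (median -0.42) and in 6 of 6 for GCas9 against GFP (median -0.52). They were higher in 6 of 6 for GCas9 against WT (median 0.08), and for Cas9 against GFP 2 were higher and 4 lower (median -0.25). The difference between the lists, and the part of these cells in it, was not tested.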

How the data were processed

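RNA was measured in 21 libraries of mouse striatum. The submitters' processing notes name the build GRCm38.p3 and the tools STAR 2.5.2b, HTSeq, SAMtools, DESeq2 and R 3.3.3; roles, settings and annotation are not given in the sources used here. The authors deposited a signal per gene symbol, which by the steps of its values is a read count divided by 1 factor per library. Whole reads were recovered in 100.0% of values within 0.001 reads, and library depth was 20.34 to 28.05 M (mega) gene reads per library of set A and 6.09 to 11.07 M per library of set B. Reads are not independent molecules after amplification.

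A gene was tested where its normalized count averaged 10 or more over a fit's libraries, as log2(value + 1), using limma 3.58.1 under R 4.3.3 (two-sided, mean trend, Benjamini-Hochberg over all genes, threshold 0.05). One fit per set held its 3 groups, and a fit over all 21 libraries compared GCas9 with Cas9 across sets. edgeR 4.0.16 and DESeq2 1.42.0 on the recovered reads, other pseudocounts, filters, scalings and left-out libraries were alternatives. On simulated counts limma recovered 73% of genes changed 2-fold for Cas9 against WT (15924 genes) and 87% for Cas9 against GFP (15428 genes). What share limma recovers in the measured libraries, some of which stood apart, was not tested.

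Same-numbered libraries deviated together in every pair (r over 0.1) for WT and GCas9 of set A (0.284, 0.112 and 0.197) and for Cas9 and GCas9 of set B (0.121, 0.329, 0.194 and 0.272). For Cas9 and GCas9 of set A r was 0.09, 0.644 and 0.448. The labels give the numbers no meaning. More Xist than Ddx3y was counted in replicate 3 of every group of set A and in replicates 3 and 4 of every group of set B. The part of that split in these correlations was not tested.

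The histone genes, the lists and the markers were chosen with earlier results of these data known. Named are Hist1h1c, the 2 genes of highest mean in each family, any called gene, and the 4 of smallest p in each comparison; others were named after their values were seen. Coordinates come from GENCODE M21 (GRCm38), matched by symbol (85 of 86 found), and promoters from RefSeq GRCm38.p6 (73 found). Of the lists, 1 symbol was not matched.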

Additional observations from a re-analysis of the deposited data

Results flagged for a closer look

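One library stood apart within its group. Hist3h2a, an H2A gene of the cluster on chromosome 11, was at 250.5 in GFP replicate 1 of set B and at 196.3 to 203.5 in the other 3 GFP libraries, a gap of 0.868 of the group's range where Dixon's limit for 4 samples is 0.829. Of 75 groups of 4 examined for the histone genes 1 gave such a value, and chance alone gives about 5%.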

How the results depend on the processing

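Of 28 single-gene results, 24 kept their direction under every alternative run. The other 4 were the differences of Hist1h1c between GCas9 and Cas9, all near 0. In set B that difference was 0.0 with edgeR and 0.02 with array weights. Leaving out 1 library it ran from -0.1 to 0.1 in set A, from -0.1 to 0.08 in set B, from -0.1 to 0.11 for the difference between sets and from -0.06 to 0.05 for their mean. The cause was not tested.

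limma called 0 histone genes in each comparison. DESeq2 called 2 for Cas9 against WT, 2 for GCas9 against WT, 1 for Cas9 against GFP and 1 for GCas9 against GFP. Array weights called 9 for Cas9 against WT (8 higher) and 1 for GCas9 against Cas9 in set A.

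Calls over all genes varied. For Cas9 against WT the count of 1 was 0 with a pseudocount of 5 and with edgeR, 116 with DESeq2, 2570 with array weights, 6 with only these 2 groups in the fit, 2 with the replicate block, 2 with the Xist term, and 0 to 7 leaving out 1 library. For GCas9 against WT the count of 1 was 218 with DESeq2, 6 with array weights, 2 with the replicate block, 2 with the Xist term and 0 to 2 leaving out 1 library. For GCas9 against Cas9 in set A the count of 0 was 5 with DESeq2, 932 with array weights and 0 to 1 leaving out 1 library. For Cas9 against GFP it was 10 with DESeq2 and 0 to 2. For GCas9 against GFP it was 3 with a filter of mean at least 1, 41 with DESeq2, 12 with array weights, 7 with only these 2 groups, 5 with the replicate block, 1 with the Xist term and 0 to 9 leaving out 1 library. The difference and the mean of the sets gave 0 to 1 leaving out 1 library. The replicate block changed no call of a histone gene. It was fitted for all comparisons, and only WT with GCas9 of set A and Cas9 with GCas9 of set B had all same-numbered correlations over 0.1 (others ran from -0.13 to 0.644). Low counts limit Hist1h1e, Hist1h4h and the genes with libraries at 0.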

Other observations

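The libraries in which Hist1h2al was at 0 were also at 0 for a gene outside the histone list in each set. In set A, Gm12312, a processed pseudogene on chromosome 11, was at 0 in replicate 2 of Cas9 and of GCas9 and at 8.3 to 29.4 in the other libraries. In set B, Gm3608, a pseudogene on chromosome 1, was at 0 in replicate 3 of Cas9 and of GCas9 and at 28.2 to 49.6 in the others. These were found by searching all genes for the same pattern of 0s, which 3 genes showed in set A and 2 in set B, Hist1h2al and Hist2h2bb included.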
